A study of Mus musculus with 7 samples.

Results

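The Notch receptors, 2 of their ligands, the nuclear complex that they control and a pair of their classical target genes were followed across dendritic cell cultures in which the transcription factor gene Gata2 had been made deletable. The 10 genes were chosen by name: the receptors Notch1, Notch2, Notch3 and Notch4, the ligands Dll1 and Jag1, the nuclear factors Rbpj and Maml1, and the targets Hes1 and Dtx1. All 10 were found on the array, through 13 probes, among 20018 genes that could be named from the accessions in the files. Of these, 7 genes, through 10 probes, were bright enough to be tested, among 14551 genes in all.

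RNA of mouse dendritic cells was amplified, labelled with Cy3 and measured on 7 one-colour Agilent arrays. The donors were C57BL/6 mice that all carried floxed Gata2 alleles and were all given tamoxifen, in 2 courses between day 1 and day 10. Mice labelled knockout (3 arrays) also carried ER-Cre, a Cre recombinase switched on by tamoxifen, while control mice (4 arrays) were Gata2(f/f) without it. Common myeloid progenitors sorted on days 20 to 22 were grown with FLT3-L at 200 ng/ml over bone marrow feeder cells of SJL mice. The promoter that drives the Cre, the ages of the mice and the way in which the dendritic cells were taken off the feeder cells are not given in the sources used here, and the labels do not say that the replicates came from separate mice or cultures, so each p-value measures only the spread between these arrays. Because Cre marks 1 group only, Cre, the deletion and the row of the slide on which each group lay cannot be told apart.

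Notch receptors are cell surface proteins that are cut when a ligand of the Delta or Jagged families on a neighbouring cell binds them. The freed inner part of the receptor travels to the nucleus, joins the DNA-binding protein Rbpj and recruits Mastermind proteins such as Maml1, and the complex switches on genes such as Hes1 and Dtx1. The pathway is known for committing blood progenitors to the T cell lineage, and in dendritic cells Notch2 is known to be needed for certain conventional subsets of the spleen and gut.

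Values are given as the log2 of the processed spot signal minus the 75th percentile of the same array, so a value above 0 marks a spot among the brighter ones of its array. Levels of different probes cannot be set against each other, and each comparison is within 1 probe. The probe for Gata2 itself was brighter on the arrays labelled knockout (2.99 ± 0.06, SD, n = 3) than on the control arrays (0.17 ± 0.29, SD, n = 4), a 7.08-fold difference (limma, Benjamini-Hochberg adjusted p = 0.000154). That goes against the label, unless the probe lies outside the deleted part, which was not tested, so every direction below is that of the arrays labelled knockout. The share of spots called well above background ran from 61.5% to 67.4% with the knockout label and from 54.1% to 56.9% in the controls (two-sided exact permutation test over 35 splits, p = 0.02857, the smallest that 3 against 4 arrays can give). The dimmest signal that still counted as well above background was lower on the arrays labelled knockout (-6.65 ± 0.38) than on the control arrays (-5.51 ± 0.13, exact permutation p = 0.02857), which touches each dim gene below. Of 14 dendritic cell markers, 13 were well above background on all 7 arrays and none passed the test in either direction by limma, at an adjusted p under 0.05 or at an unadjusted p under 0.05 (0 higher, 0 lower).

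Among the Notch genes, the receptor Notch3 and the ligand Dll1 were higher on the arrays labelled knockout, and the other 5 tested genes did not pass the test. Over all genes tested, 418 were called (2.87%), of which 217 were higher (1.49%) and 201 were lower (1.38%). No Notch gene was lower, by limma at an adjusted p under 0.05 or at an unadjusted p under 0.05 (0 genes). Both Notch3 and Dll1 were well above background on all 3 arrays labelled knockout and on no control array. They therefore entered the test only through the group in which they were bright, and that way of entry favours a difference in this direction. The same pattern was found for 473 of the 14551 genes tested (3.25%), of which 54 were called higher (11.4%).

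**Figure D1:**
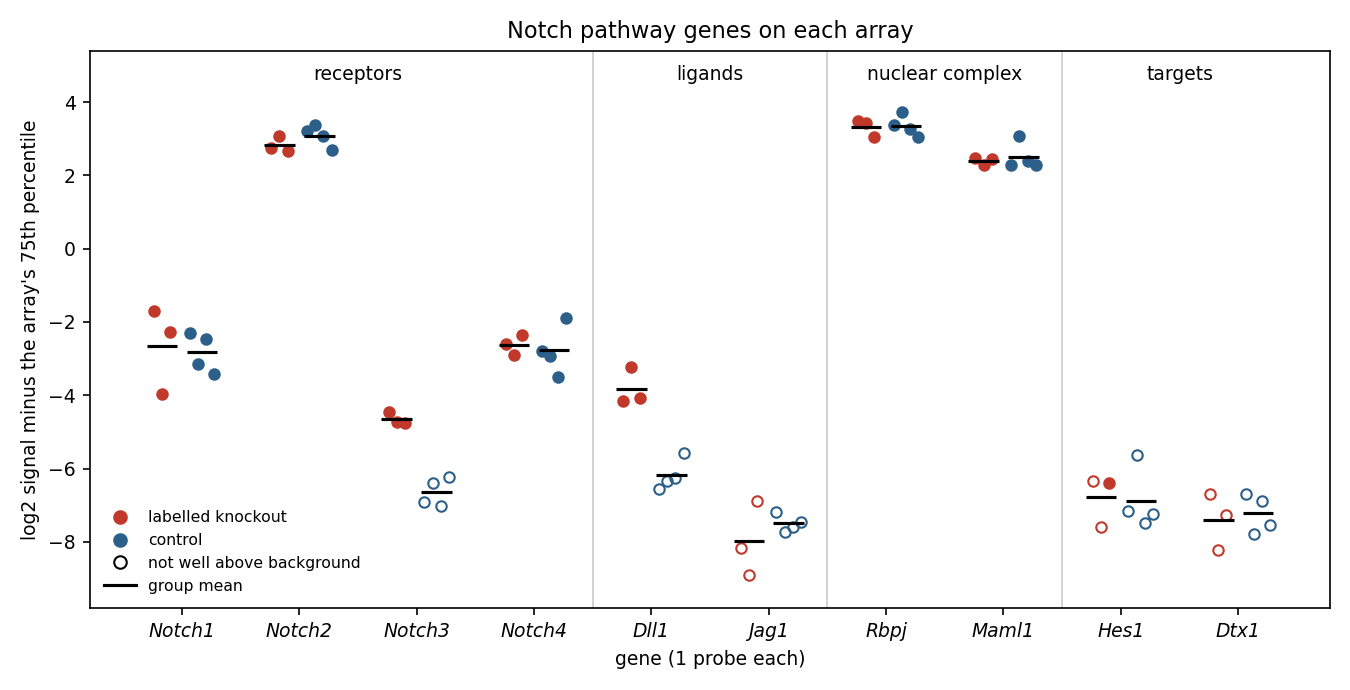
Log2 signal relative to the 75th percentile of each array (vertical axis) for 1 probe of each Notch gene (horizontal axis), with red points for the 3 arrays labelled knockout, blue points for the 4 control arrays, open points where the spot was not well above background, and bars for group means. The red and blue points separate for Notch3 and Dll1, whose control points are all open, and overlap for the other 8 genes.

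Notch3, a receptor best known from the smooth muscle cells and pericytes of vessel walls and also expressed by developing T cells, had values of -4.46, -4.72 and -4.75 on the arrays labelled knockout. On the control arrays it had -6.91, -6.38, -7.02 and -6.23. Every array labelled knockout lay above every control array, and in the scanner's own units the signals were 151, 145 and 137 against 28, 37, 21 and 41. The fitted log2 difference was 1.99 (SE 0.22, adjusted p = 0.00227), with means of -4.64 ± 0.16 (n = 3) and -6.63 ± 0.39 (n = 4). Since no control array measured the gene, the size of the difference depends on how dim signal is treated. Set against the dimmest signal well above background on each control array, Notch3 was 1.82-fold higher. With values raised to the dimmest signal well above background of their own array the log2 difference was 0.87 (adjusted p = 0.0104). With 1 common floor of -5.32 on all arrays it was 0.68 (adjusted p = 0.0145). Either floor replaced every control value of Notch3, so these p-values do not measure the spread of the controls and add no support to the call. With normexp background correction (offset 50) scaled to the 75th percentile, the log2 difference was 0.53 and the call was lost (adjusted p = 0.0606). With normexp and quantile normalization it was 0.75 and the call was kept (adjusted p = 0.00587).

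The Notch3 mean of the arrays labelled knockout lay above the dimmest signal well above background on each control array, which ran from -5.59 to -5.32. The lowest value of Notch3 on an array labelled knockout was 0.57 above the common floor. The promoter windows of the 2 genes that differed are shown because they are the members that passed the test. They are the 250 bases before each RefSeq start site in GRCm38.p6, 5′ to 3′ on the gene's strand.
Notch3, chr17:32166891-32167140, minus strand: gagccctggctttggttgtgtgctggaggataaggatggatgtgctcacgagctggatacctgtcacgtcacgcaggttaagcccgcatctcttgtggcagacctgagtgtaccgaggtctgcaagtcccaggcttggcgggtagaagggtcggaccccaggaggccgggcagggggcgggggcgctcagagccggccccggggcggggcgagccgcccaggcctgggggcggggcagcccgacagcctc
Dll1, first start site, chr17:15375824-15376073, minus strand: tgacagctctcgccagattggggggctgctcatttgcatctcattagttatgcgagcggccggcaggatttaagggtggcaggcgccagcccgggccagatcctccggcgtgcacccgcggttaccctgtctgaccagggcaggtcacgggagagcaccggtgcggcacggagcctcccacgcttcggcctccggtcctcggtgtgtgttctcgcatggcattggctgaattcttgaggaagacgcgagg
Dll1, second start site, chr17:15376933-15377182, minus strand: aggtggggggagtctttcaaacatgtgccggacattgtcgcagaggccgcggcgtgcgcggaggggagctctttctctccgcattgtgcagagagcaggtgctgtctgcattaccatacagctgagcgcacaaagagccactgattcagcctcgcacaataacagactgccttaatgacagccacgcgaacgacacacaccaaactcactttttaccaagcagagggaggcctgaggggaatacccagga
None of these 3 windows holds the 6-letter core bound by Rbpj (TGGGAA, or TTCCCA on the other strand), so no letter is in capitals for it. Of the sites bound by GATA factors, only the form AGATAA (or TTATCT) was searched for, and it was not found in these windows either. Other forms of the GATA site were not searched for, so the windows are not shown to lack GATA sites. The Rbpj core was found in 21.6% of 32851 promoter windows of the same length and the AGATAA form in 10.0%. RefSeq windows were at hand for 9 of the 10 genes, 11 windows in all, and Hes1 was not among them. The Rbpj core was found in 2 of those windows, both of Rbpj itself and overlapping each other, and the AGATAA form of the GATA site in 0 windows. The C and G content was 68.8% for Notch3 and 64.0% and 56.0% for the windows of Dll1, against a median of 52.4% over all windows.

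The other receptors overlapped between the groups. Notch2, the receptor tied to dendritic cell subsets, had values of 2.74, 3.08 and 2.67 on the arrays labelled knockout. Its control values were 3.21, 3.37, 3.06 and 2.69. Control replicate 4 lay among the arrays labelled knockout, and the log2 difference was -0.25 (SE 0.19, 95% interval -0.69 to 0.19, adjusted p = 0.635). A second, dim Notch2 probe was well above background on 3 of the 7 arrays only. It had -2.69 on control replicate 3, where every other array lay between -6.15 and -5.74, and its difference did not pass the probe-level test (-0.85, adjusted p = 0.742), in which 1.36% of probes were called.

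Notch1, the receptor that starts T cell commitment, varied more within the groups than between them. It had -1.71, -3.96 and -2.26 on the arrays labelled knockout. In the controls it had -2.30, -3.14, -2.47 and -3.41. Both the highest and the lowest value belonged to arrays labelled knockout, and the log2 difference was 0.18 (SE 0.52, 95% interval -1.02 to 1.38, adjusted p = 0.926). The interval is wide, so a difference of up to 1 log2 unit either way could not be told from none on these arrays. The second Notch1 probe did not follow that order. It ran from -4.92 to -4.54 on the arrays labelled knockout and from -6.32 to -5.26 on 3 control arrays, with -2.86 on control replicate 4, and its difference was 0.24 (adjusted p = 0.938).

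Notch4, a receptor best known from endothelial cells, had -2.60, -2.91 and -2.35 on the arrays labelled knockout. The controls had -2.79, -2.92, -3.49 and -1.88. The control arrays held both extremes, and the log2 difference was 0.15 (SE 0.35, 95% interval -0.64 to 0.94, adjusted p = 0.902).

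The genes whose pattern over the 7 arrays was closest to that of Notch1, the widest-ranging of the Notch genes well above background on all arrays (range 2.25), were B020031M17Rik, Pnma2 and Gab3. Their root mean square difference from Notch1, after each gene was centred on its own mean, was 0.088, 0.101 and 0.108, where the median over all genes was 0.779. All 3 shared the low value of knockout replicate 2 and the high value of knockout replicate 1, which follows from their choice by closeness over the same arrays. The pattern is that of the brighter Notch1 probe, and the second Notch1 probe did not follow it. Within 0.3 of Notch1 lay 18 of 14507 genes with a value on every array, and none was another gene of the Notch lists. The spike-in controls, added RNA of known amount, were also lowest on knockout replicate 2, with a median of -0.20 against 2.61 and 2.01 on the other arrays labelled knockout and 0.80 to 1.48 on the control arrays. The part of the spike-in shift in the Notch1 pattern was not tested.

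**Figure D2:**
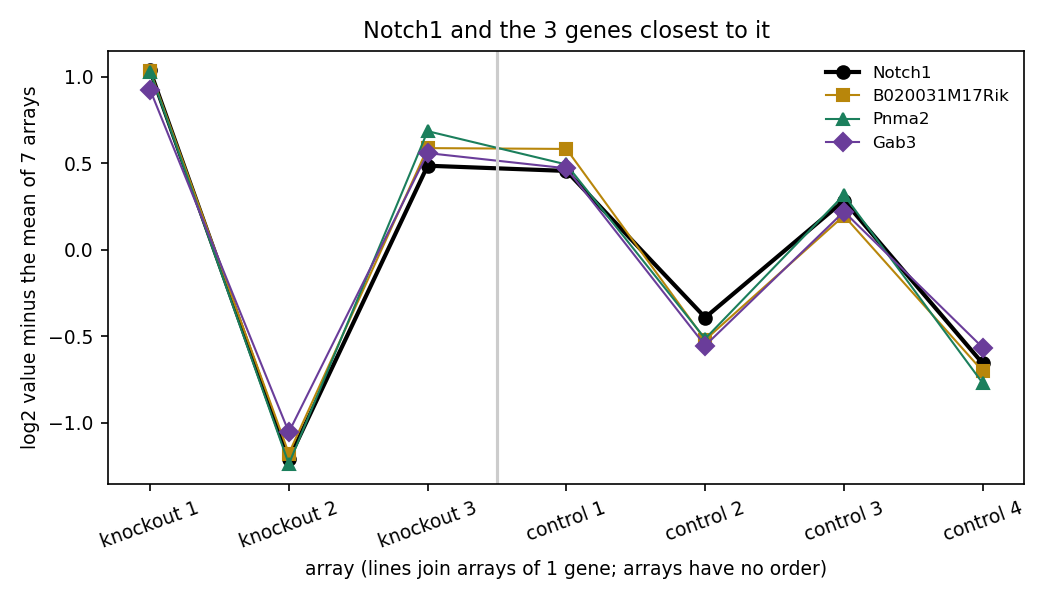
Log2 value minus the gene's mean over 7 arrays (vertical axis) on each array (horizontal axis) for the brighter Notch1 probe (black) and the 3 genes picked as closest to it over these arrays. All 4 lines are lowest on knockout replicate 2 and highest on knockout replicate 1, and the control arrays lie between them.

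Dll1, a Delta-type ligand that binds Notch receptors on neighbouring cells, showed the largest difference of the tested Notch genes. It had -4.15, -3.23 and -4.09 on the arrays labelled knockout. Its control values were -6.55, -6.34, -6.26 and -5.58. The groups did not overlap, which was so, with the labelled knockout higher, for 841 of all genes tested (5.78%). The fitted log2 difference was 2.36 (SE 0.30, adjusted p = 0.00439), with means of -3.82 ± 0.51 (n = 3) and -6.18 ± 0.42 (n = 4). Set against the dimmest signal well above background on the control arrays, Dll1 was 3.22-fold higher. Dll1 kept its call with normexp scaled to the 75th percentile (log2 difference 1.03, adjusted p = 0.0128), the setting in which Notch3 lost it. With the common floor, where every control value became the floor itself, the difference was 1.50 (adjusted p = 0.0281).

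The Dll1 probe was printed in 10 spots on each array, which gives a measure of the spread within an array. On each array labelled knockout all 10 spots were well above background, and on each control array 0 of 10 were. The spots spread with an SD of 0.06 to 0.17 on the arrays labelled knockout and of 0.33 to 0.78 on the control arrays. The dimmest Dll1 spot on any array labelled knockout, at -4.30, was brighter than the brightest on any control array, at -5.26. These spots share 1 RNA sample an array, so they show the precision of the reading and not that of the replicates.

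**Figure D3:**
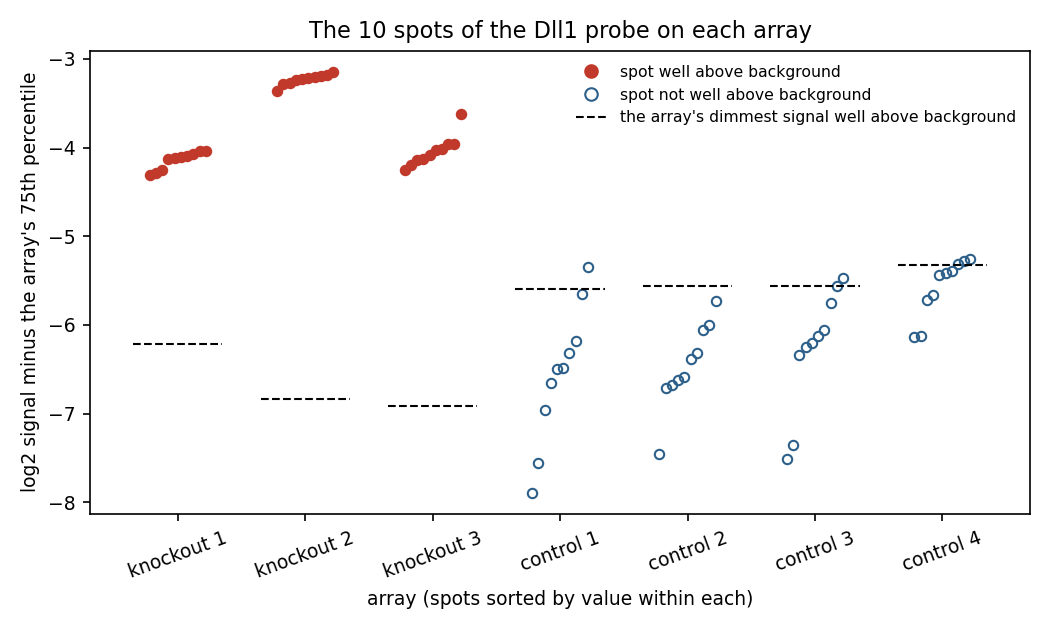
Log2 signal relative to the 75th percentile of each array (vertical axis) for each of the 10 Dll1 spots on the 7 arrays (horizontal axis), with filled points for spots well above background, open points for spots that were not, and dashed lines for the dimmest signal that counted as well above background on that array. Every spot on the arrays labelled knockout lies above every spot on the control arrays, and the dashed lines are lower on the arrays labelled knockout.

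**Figure D4:**
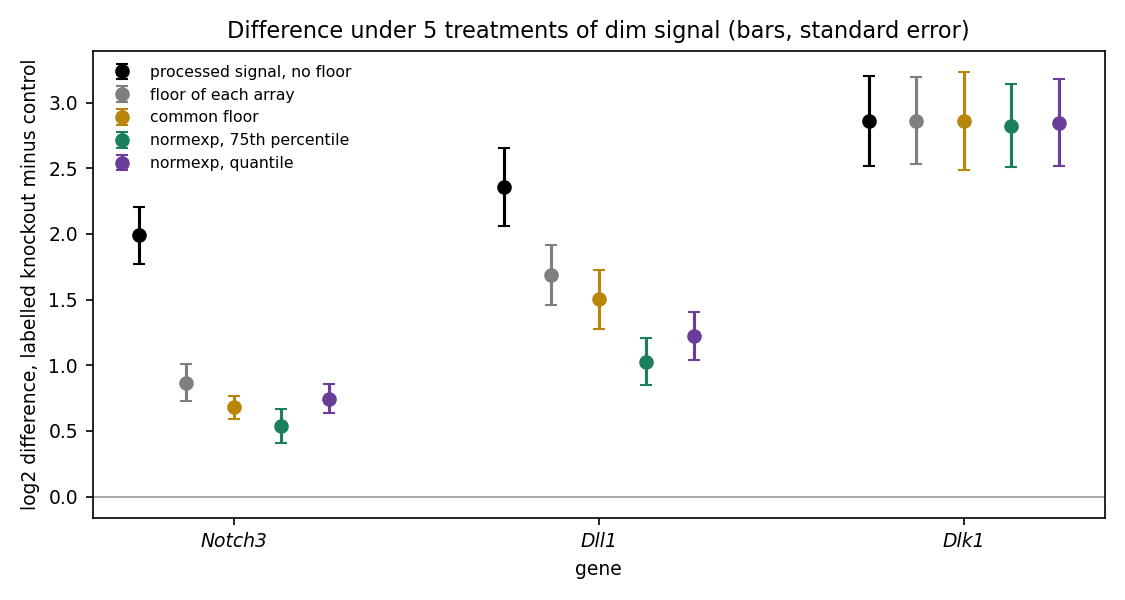
Log2 difference, arrays labelled knockout minus control arrays (vertical axis, bars are standard errors), for Notch3, Dll1 and Dlk1 (horizontal axis) under 5 treatments of dim signal. The differences of Notch3 and Dll1 shrink to 0.53 and 1.03 with normexp correction, while that of Dlk1, which was well above background on all arrays, stays near 2.86.

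Jag1, a Jagged-type ligand, was not well above background on any of the 7 arrays. Its signals in scanner units were 12, 8 and 31 on the arrays labelled knockout and 23, 15, 14 and 18 on the control arrays, and it was not tested.

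The nuclear complex was bright in both groups and overlapped between them. Rbpj had 3.47, 3.42 and 3.04 on the arrays labelled knockout. In the controls it had 3.37, 3.73, 3.26 and 3.05. Each group held high and low arrays, and the log2 difference was -0.04 (SE 0.19, 95% interval -0.49 to 0.40, adjusted p = 0.955). A second, dimmer Rbpj probe, well above background on all 7 arrays, gave -0.05 (adjusted p = 0.976). Maml1, the Mastermind coactivator, had 2.47, 2.29 and 2.43 on the arrays labelled knockout. Control values were 2.30, 3.07, 2.38 and 2.29, with replicate 2 alone above the others. Its log2 difference was -0.11 (SE 0.21, 95% interval -0.59 to 0.37, adjusted p = 0.875).

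The classical targets were close to or below background. Hes1, a repressor that Notch switches on in many tissues, was well above background on 1 array, knockout replicate 3, with signals of 41, 20 and 44 against 23, 63, 15 and 20 in scanner units. The brightest of these, control replicate 2, did not count as well above background. Dtx1, a ubiquitin ligase of the Deltex family that is switched on by Notch in developing lymphocytes, was well above background on 0 arrays, with signals of 32, 13 and 24 against 32, 14, 23 and 16. Neither gene could be tested, so no difference in them was detectable on these arrays.

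Beyond these 10 genes, 66 further pathway genes were listed by role, of which 62 had a named probe and 55 were tested. The test was passed by 3 of them in the direction of higher on the arrays labelled knockout, Dlk1, Tcf7 and Gata3 (1.49% over all genes), and by 0 in the other direction (1.38% over all genes). At an unadjusted p under 0.05, limma placed 7 of the 55 higher and 1 lower, where over all 14551 genes it placed 893 higher and 1069 lower. The 7 include Gata3, Nrarp and Lfng, which were well above background on no control array. They entered the test only through the group in which they were bright, so the 7 are not read as a lean of the list. The median log2 difference of the 55 genes was 0.02, where that of all genes tested was -0.05, and 31 were above 0 and 24 below.

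Dlk1, a Delta-like membrane protein that lacks the domain through which canonical ligands bind Notch and is known as a marker of fetal and progenitor cells, had 2.86, 1.84 and 3.05 on the arrays labelled knockout. The controls had -0.84, 0.13, 0.05 and -0.45. All 7 arrays measured it well above background and the groups lay far apart, 2.58 ± 0.65 (n = 3) against -0.28 ± 0.45 (n = 4). It was 7.26-fold higher (log2 difference 2.86, SE 0.34, adjusted p = 0.00335). Tcf7, a transcription factor of early T cells switched on by Notch, was 3.79-fold higher (adjusted p = 0.00243), with -0.14, 0.32 and 0.00 against -1.99, -1.41, -1.79 and -2.25. Gata3, a T cell factor of the same family as Gata2, was well above background on all 3 arrays labelled knockout and on no control array, so like Notch3 and Dll1 it entered the test only through the group in which it was bright. With dim control values raised to their array's dimmest signal well above background, Gata3 was 3.21-fold higher. Its fitted log2 difference, without that floor, was 2.88 (adjusted p = 0.0473), with means of -3.77 ± 0.80 (n = 3) and -6.65 ± 1.09 (n = 4). That call was lost in 14 of 28 alternatives. With the common floor the log2 difference was 1.49 (adjusted p = 0.115), with normexp scaled to the 75th percentile 1.10 (adjusted p = 0.0762), and with quantile normalization 2.99 (adjusted p = 0.0540). It was also lost without knockout replicate 1, 2 or 3 (adjusted p = 0.159, 0.0550 and 0.176, the probes of all arrays kept) and without control replicate 1, 2 or 3 (0.0964, 0.104 and 0.122). The study itself picked out Tcf7 and Gata3 from these RNA samples, and so neither direction counts as separate evidence.

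Of the remaining ligands tested, Jag2, a Jagged-type ligand, gave 0.21 (adjusted p = 0.672) and Dll3, a divergent Delta-type protein, gave -0.09 (SE 0.13), which did not pass the test. None of the 7 tested genes that cut the receptor passed the test. Adam10, the protease that makes the first ligand-induced cut, gave -0.35 (adjusted p = 0.484), and Psenen, a subunit of the gamma-secretase that makes the second cut, gave -0.25 (adjusted p = 0.481), while Aph1b, another subunit, gave -0.33 (adjusted p = 0.361). The arrays labelled knockout lay wholly below the control arrays for Psenen and Aph1b, and over all genes tested that was so for 1175 (8.08%).

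Among the 4 tested enzymes that add sugars to the receptor, none passed the test. Lfng, a Fringe that tunes which ligand a receptor answers to, was well above background on all 3 arrays labelled knockout and on no control array, so its difference is not a measured one. It was 0.23 with the floor of each array, 0.086 with the common floor and -0.020 with normexp scaled to the 75th percentile, against a fitted 0.49 (adjusted p = 0.143). Mfng, another Fringe, gave 0.23 (adjusted p = 0.646). Among the 4 ubiquitin ligases that act on ligands the largest difference was that of Neurl1b, -0.12 (adjusted p = 0.728).

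Of 9 tested genes of receptor turnover and inhibition, none passed the test. Nrarp, an inhibitor that Notch itself switches on, had -4.73, -3.68 and -4.32 on the arrays labelled knockout. Control values were -5.97, -5.47, -7.18 and -5.62. The groups did not overlap, but no control array measured it well above background. The fitted difference of 1.82 did not pass the test (adjusted p = 0.0745, from 0.0202 to 0.220 over 28 alternatives, 5 of which put it past their threshold). Measured against the dimmest signal well above background Nrarp was 2.37-fold higher. The log2 difference was 1.08 with the common floor and 0.75 with normexp scaled to the 75th percentile. Dtx4, a Deltex relative of Dtx1, gave 0.53 (adjusted p = 0.269).

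Among the 7 coactivators, 12 corepressors and 5 tested HES and HEY genes, none passed the test. Kat2b, an acetyltransferase, gave -0.37 (adjusted p = 0.543) and Snw1, a partner of Rbpj, gave -0.11 (adjusted p = 0.819). Of the corepressors, Tle1 of the Groucho family gave -0.41 (adjusted p = 0.503) and Ctbp1 gave -0.11 (adjusted p = 0.804). Hey1, a relative of Hes1 that was well above background on 1 of the 4 control arrays, gave 1.17 (adjusted p = 0.428) and 0.65 with the common floor. Hes5, a classical Notch target, gave 0.76 (adjusted p = 0.269), and Hes6, which opposes Hes1, gave -0.21 (adjusted p = 0.484). Of the remaining early T cell targets, Myc gave -0.17 (adjusted p = 0.660), and Ptcra, which encodes part of the T cell receptor precursor, gave -1.14 (adjusted p = 0.480). Ptcra was well above background on 2 arrays labelled knockout and 1 control array, its lowest value was -8.20 on knockout replicate 1, and with the common floor its difference was -0.18.

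**Figure D5:**
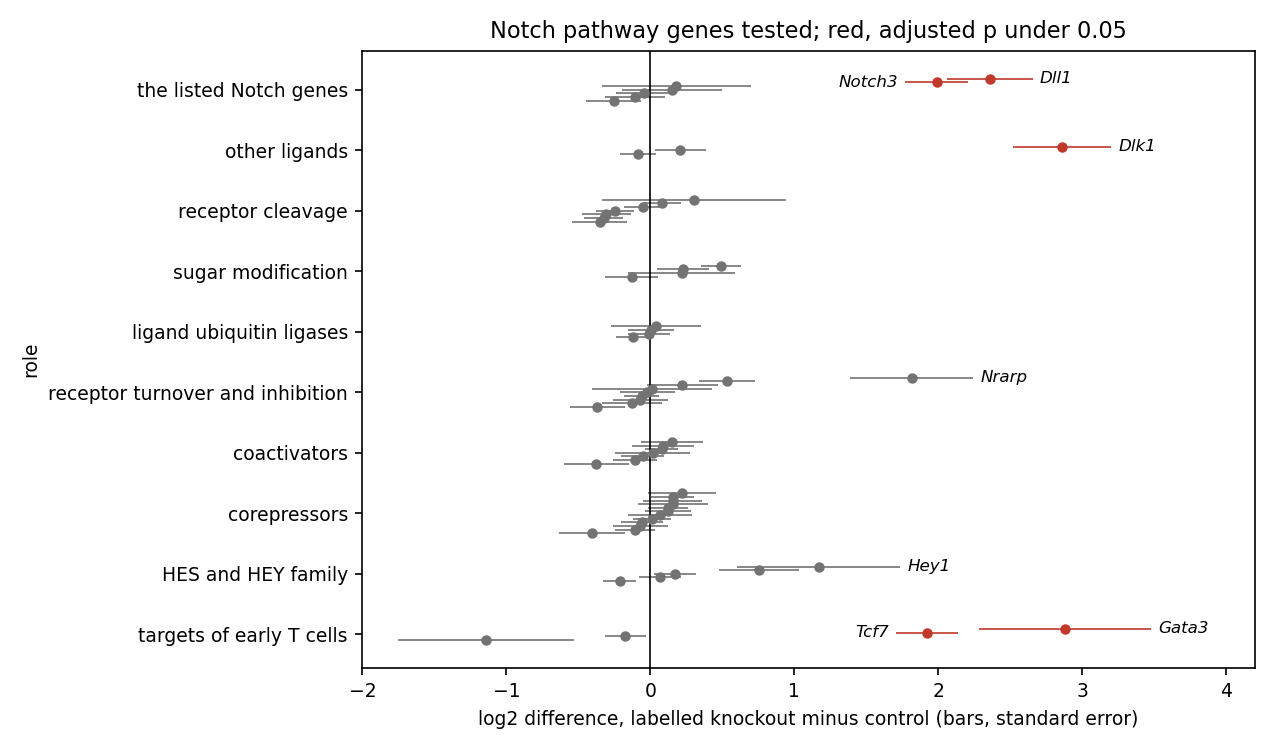
Log2 difference, arrays labelled knockout minus control arrays (horizontal axis, bars are standard errors), for the 7 tested Notch genes and the 55 tested further pathway genes, grouped by role (vertical axis), with red points for genes past an adjusted p of 0.05. Dll1, Notch3, Dlk1, Tcf7 and Gata3 are red, and the others are grey. The values of Notch3, Dll1, Gata3, Nrarp and Lfng are fitted ones against control arrays that did not measure the gene, and they shrink with a floor.

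Markers of other cells that carry Notch genes were read beside these results, each list as a sum over its probes, which the brightest probes set. Over all genes tested, 1.49% were called higher and 1.38% lower. Early T cell markers summed to 10.73 to 11.2 times the 75th percentile on the arrays labelled knockout and 6.81 to 8.30 on the control arrays, with 2 of 9 higher, Lck (3.07-fold) and Rag1 (12.0-fold), while Cd3e gave -0.05 (adjusted p = 0.915). Of 8 stromal and mural markers, Col1a1, Cxcl12 and Rgs5 were not well above background on any array, Acta2 was lower (log2 difference -0.96, adjusted p = 0.0263), and the list summed to 1.77 to 3.35 against 1.34 to 1.95. Pdgfrb makes up most of that sum, with 1.66, 0.66 and 0.86 against 0.03, 0.74, 0.43 and 0.29 (adjusted p = 0.301), while Col3a1 gave -1.03 (adjusted p = 0.518). Endothelial markers summed to 4.45 to 4.81 against 4.68 to 6.87, with none of 4 tested genes called by limma (0 at an unadjusted p under 0.05), and no array had Emcn above background. Macrophage markers, 4 of 7 tested being lower, summed to 37.6 to 48.7 with the knockout label against 51.8 to 67.4. Mast cell and basophil markers, 5 of 6 being lower, summed to 7.23 to 10.3 against 17.4 to 28.8. B cell markers summed to 13.2 to 16.5 against 13.1 to 17.6. In RNA from many cells, fewer cells of a type and less RNA per cell cannot be told apart, and the part of these shifts in the differences of Notch3, Dll1, Tcf7 and Gata3 was not tested.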

How the data were processed

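RNA of 3 dendritic cell samples labelled knockout and 4 controls was measured on 7 Agilent arrays. Per the file headers, the scanner images were read with Feature Extraction 10.7.3.1. The deposited processed signal is an intensity from which that software had already taken the background, per the file headers; the deposited series table holds log2 values centred per probe by the authors, as comparison with the scanner values showed, and served as an alternative. The arrays share 1 slide and 1 scan, each group in its own row of it. From the intensity, log2 minus each array's 75th percentile was computed, replicate spots were averaged, and 34133 of 55681 probes, well above background on at least 3 arrays, were kept. Accessions named 26413 probes (47.4%) through the RefSeq table of GRCm38.p6, and the array design is annotated on mm9, so no coordinates were taken from the probes. Each gene took its brightest tested probe. Groups were compared with limma 3.58.1 in R 4.3.3 (Benjamini-Hochberg over 14551 genes, threshold 0.05), after a test on simulated data. The files hold no mean spot signal, so normexp (offset 50) used the median signal. The number of arrays limits precision. Replicate numbers did not pair the arrays (correlations of deviations -0.10, -0.17 and -0.05). The alternatives, 33 settings, are in the closing section. The Notch genes, the lists and the tests were chosen with earlier results of these data known. Genes named were all 10 Notch genes, each further pathway gene past the threshold, and in each role the one of highest level and of largest difference; Aph1b, Hes5, Jag2 and Dll3 were added after their values were seen.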

Additional observations from a re-analysis of the deposited data

Results flagged for a closer look

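On control replicate 2, Maml1 had a log2 value of 3.07 relative to the array's 75th percentile, far from 2.30, 2.38 and 2.29 on the other control arrays. Dixon's test picked it out, with a gap of 0.882 of the group's range. The test was run on the control values of each tested Notch gene and of several further pathway genes, and flagged no other. Chance gives such a value in about 1 of 20 groups, so with that many groups 1 such value is unremarkable.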

How the results depend on the processing

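The call of Dll1 was kept under all 28 alternatives in which it was tested (log2 difference 1.03 to 2.56). That of Notch3 was kept under 27 of 28 (0.53 to 2.12), and those of Dlk1 (2.63 to 3.25) and Tcf7 under all 32. That of Gata3 was lost in 14 of 28. The alternatives are not separate tests. They include both floors, and each control array left out is counted with the filter applied again and with the probes of all arrays kept. Notch3, Dll1 and Gata3 entered the main test only through the arrays labelled knockout, so these tallies add no support to their calls. The 2 Notch genes higher became 1 with normexp scaled to the 75th percentile and 0 with the filter requiring all arrays. Leaving out each array in turn gave 0 to 2: without any one of the arrays labelled knockout and with the filter applied again, Notch3 and Dll1 lacked the 3 arrays needed and were not tested, and with the probes of all arrays kept, a setting chosen after seeing the data, both were called each time. The 3 further pathway genes higher became 7 with array weights. Over all genes, 217 higher became 365 with no filter, 380 with array weights and 108 at a threshold of 0.01, and 88 to 224 with 1 array left out (126 without knockout replicate 3 and the probes of all arrays kept). The 201 lower became 2483 with no filter, 310 with a floor of each array, 374 with array weights and 96 at 0.01, and 105 to 178 with 1 array left out (with the probes of all arrays kept, 106 without knockout replicate 3 and 127 without control replicate 3). With the replicate number as a block, 86 genes were higher and 95 lower, Notch3 gave 2.12 (adjusted p = 0.0196) and Dll1 gave 2.56 (adjusted p = 0.0137), and it changed no call of a Notch gene; the labels tie no arrays to a number. Some differences that did not pass the test in any setting but 1 (Lfng with array weights) changed sign. Notch1 gave -0.012 with the block and -0.29 without knockout replicate 1, -0.0097 without knockout replicate 3 and -0.012 without control replicate 4 (-0.29 to 0.84 with 1 array left out). Notch4 gave -0.090 without control replicate 3 (-0.090 to 0.45). Rbpj gave 0.042 with normexp and quantile, 0.034 with quantile, 0.024 with median scaling, 0.090 without knockout replicate 3 and 0.081 without control replicate 2 (-0.14 to 0.090). Maml1 gave 0.034 with array weights and 0.079 without control replicate 2 (-0.18 to 0.079). Neurl1b gave 0.099 with normexp and quantile and 0.095 with quantile, and Lfng -0.020 with normexp scaled to the 75th percentile. The cause was not tested. Signal over background limits Notch3, Dll1, Nrarp, Gata3 and Hes1.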
